A study of Mus musculus with 8 samples.

Results

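The integrated stress response is represented here by 10 mouse genes: Eif2ak3, Atf4, Ddit3, Atf3, Trib3, Asns, Psat1, Phgdh, Sesn2 and Fgf21. They were taken by gene symbol from the annotation of the array, and all 10 were among the 19935 genes measured. Each gene is read by 1 probe set that names it alone. Transcript levels were read on Affymetrix whole-transcript arrays, whose short probes lie along the exons of each gene, and are given as log2 intensities. There were 4 livers of NS-DADm mice, in which both corepressors, NCOR and SMRT, carry mutations in the domain that binds and activates the histone deacetylase HDAC3. The other 4 livers were wild type (WT). All 8 samples were C57Bl/6 male livers from animals aged 10 to 12 weeks on normal chow and 12 h of light and 12 h of dark, taken at zeitgeber time 10. The mutation sits in the corepressor genes themselves, so that it is not limited to hepatocytes. The transcripts of the mutated genes were not analysed here, and the genotypes rest on the labels. The comparison asks whether loss of HDAC3 activation by its corepressors is accompanied by a change of stress gene transcripts in liver.

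Cells slow protein synthesis when misfolded protein in the endoplasmic reticulum, amino acid shortage, viral RNA or lack of haem activates one of several kinases that phosphorylate the translation factor eIF2. The block spares the mRNA of the transcription factor ATF4, whose protein then builds up and switches on genes for amino acid supply, redox defence and, if the stress lasts, cell death. ATF4 is controlled largely at translation, so that a transcript array sees the response mainly through the targets. In liver the response also drives secretion of the hormone FGF21.

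ATF4 binds, often with a C/EBP partner, to a composite element known as CARE, searched here as TGATGNAA on both strands. The search covered 250 bases before to 50 bases after the start of each gene, in RefSeq sequence of the build GRCm38.p6, and all 10 genes had such a window. The element occurred in 4 of the 10 genes and in 3.97% of all 32851 windows. Some genes, such as Psat1, have several windows, so genes and windows are not the same unit. The share of all genes with a match in any window is not given here. The 4 matches are shown because they include Asns and Atf3, the genes whose levels varied most between livers. Each run is 30 bases of the gene's own strand, with the match in capitals.
Asns, chr6:7693214-7693243, minus strand, first base of the match 23 bases before the start: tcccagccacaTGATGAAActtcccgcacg
Atf3, chr1:191183425-191183454, minus strand, 110 bases before the start: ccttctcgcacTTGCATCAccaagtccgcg
Fgf21, chr7:45615611-45615640, minus strand, 139 bases before the start: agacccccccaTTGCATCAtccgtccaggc
Trib3, chr2:152344028-152344057, minus strand, 14 bases after the start: ttagctcaggtTTACATCAgccgggcgggg
The match in Asns reads forward and the other 3 read as the reverse complement, TTNCATCA. The 250 bases before the starts of Asns and Atf3 are given whole.
Asns, chr6:7693210-7693459, minus strand: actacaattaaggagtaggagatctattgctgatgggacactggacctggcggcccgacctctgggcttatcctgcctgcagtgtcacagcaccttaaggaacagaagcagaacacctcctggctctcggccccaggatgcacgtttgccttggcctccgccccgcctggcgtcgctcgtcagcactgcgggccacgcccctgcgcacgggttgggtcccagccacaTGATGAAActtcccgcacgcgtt
Atf3, chr1:191183334-191183583, minus strand: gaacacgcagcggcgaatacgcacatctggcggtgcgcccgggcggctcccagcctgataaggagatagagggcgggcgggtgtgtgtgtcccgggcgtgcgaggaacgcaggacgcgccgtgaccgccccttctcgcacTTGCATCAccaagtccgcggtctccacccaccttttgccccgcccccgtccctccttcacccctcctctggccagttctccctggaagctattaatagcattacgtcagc
The cyclic AMP element TGACGTCA, in 1.79% of all windows, and the endoplasmic reticulum stress element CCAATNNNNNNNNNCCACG, in 0.119%, had no match in the windows of the 10 genes, and the 3 motifs were searched separately. A match is a description of the letters and does not show binding.

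None of the 10 genes passed the test between NS-DADm and WT livers. The count was 0 of 10 at an adjusted p under 0.05 (limma, Benjamini-Hochberg over all genes), where 0.271% of all genes passed. At an unadjusted p under 0.05 it was 1 of 10, Sesn2, against 9.33% of all genes. In 6 genes the NS-DADm mean was the higher one and in 4 the lower one. The median log2 difference of the 10 genes was 0.07, against -0.01 over all genes. In no gene did all 4 arrays of one genotype lie above all 4 of the other, which was the case for 5.63% of all genes. For 7 of the 10 genes the 95% confidence interval of the difference lay wholly within 0.5 on the log2 scale, or 1.41-fold, in either direction. The other 3 were Asns, Atf3 and Sesn2. The share of all genes with such an interval is not given here. The median SE was 0.10 for the 10 genes and 0.07 over all genes. Of the 7, Fgf21 and Psat1 lay below the median of all genes on all 8 arrays and Phgdh on 7 of 8. RMA compresses small differences at low intensity. Whether each array stands for its own animal is not stated in the labels, and the p-values measure no more than the spread among these arrays, part of which may be technical. RNA of a whole liver does not tell apart fewer cells of a type and less RNA per cell.

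**Figure D1:**
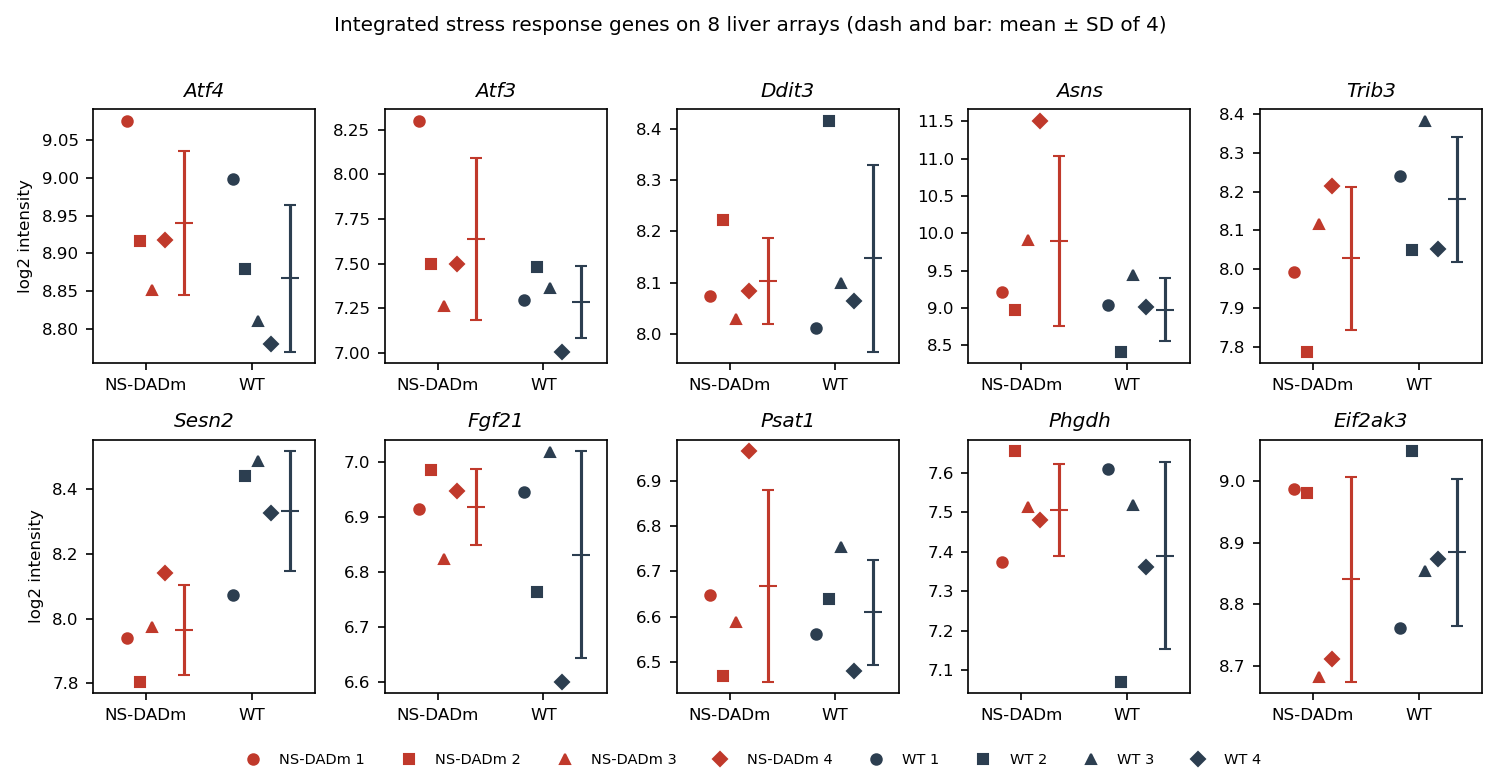
Log2 intensity of the 10 integrated stress response genes on each array, with NS-DADm arrays on the left and WT arrays on the right of each panel; the symbol gives the replicate number and the dash with its bar the mean ± SD of 4 arrays. Asns reached 11.50 on NS-DADm replicate 4 and Atf3 reached 8.30 on NS-DADm replicate 1, while the other arrays of both genes lay lower; each panel has its own scale.

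Eif2ak3 encodes PERK, the eIF2 kinase of the endoplasmic reticulum. Its level was 8.99, 8.98, 8.68 and 8.71 in the NS-DADm livers, against 8.76, 9.05, 8.85 and 8.87 in the WT livers. NS-DADm replicates 3 and 4 lay below all WT arrays and replicates 1 and 2 within their range. The log2 difference was -0.04 (SE 0.09, 95% confidence interval -0.24 to 0.15, adjusted p = 0.967), and it was 0.01 without NS-DADm replicate 3 and 0.01 without WT replicate 2.

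Atf4, the central transcription factor of the response, was at 9.08, 8.92, 8.85 and 8.92 in the NS-DADm livers, against 8.998, 8.88, 8.81 and 8.78 in the WT livers. The groups overlapped and had the same spread, with means of 8.94 ± 0.10 in NS-DADm and 8.87 ± 0.10 in WT livers (SD, n = 4 each). Its log2 difference was 0.07 (SE 0.07, interval -0.08 to 0.22, adjusted p = 0.866), the narrowest interval of the 10.

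Ddit3, which encodes CHOP, a factor tied to cell death in lasting stress, was at 8.07, 8.22, 8.03 and 8.08 in NS-DADm livers, against 8.01, 8.42, 8.10 and 8.06 in WT livers. A single array stood higher in each genotype, replicate 2 in both cases. The log2 difference of -0.05 (SE 0.09, interval -0.24 to 0.15, adjusted p = 0.964) was 0.04 without WT replicate 2.

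Atf3 encodes a repressor and activator of the same bZIP family, induced within minutes by many kinds of stress. It was at 8.30, 7.50, 7.26 and 7.50 in NS-DADm livers, against 7.30, 7.48, 7.36 and 7.01 in WT livers. In NS-DADm replicate 1 it was 0.80 above the next highest array, or 1.74-fold, and NS-DADm replicates 2 and 4 lay just above the highest WT array. The means were 7.64 ± 0.45 in NS-DADm and 7.29 ± 0.20 in WT livers. The log2 difference of 0.35 (SE 0.19, interval -0.07 to 0.78, adjusted p = 0.630) was 0.13 without NS-DADm replicate 1 (interval -0.11 to 0.38). It was 0.48 without NS-DADm replicate 3 (interval 0.05 to 0.91, adjusted p = 0.590), and the interval included 0 with any other array left out.

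Trib3, a pseudokinase that ATF4 and CHOP induce and that restrains ATF4 in turn, was at 7.99, 7.79, 8.12 and 8.22 in NS-DADm livers, against 8.24, 8.05, 8.38 and 8.05 in WT livers. NS-DADm replicates 1 and 2 lay below all WT arrays. The log2 difference was -0.15 (SE 0.10, interval -0.38 to 0.08, adjusted p = 0.748).

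Asns encodes asparagine synthetase, which makes asparagine from aspartate and glutamine and is a standard ATF4 target. It was at 9.22, 8.98, 9.90 and 11.50 in NS-DADm livers, against 9.04, 8.42, 9.45 and 9.02 in WT livers. NS-DADm replicate 4 was 3.03-fold above the next highest array and 5.75-fold above the WT mean. NS-DADm replicate 3 also lay above all WT arrays, while replicates 1 and 2 lay within the WT range. The means were 9.90 ± 1.14 in NS-DADm and 8.98 ± 0.42 in WT livers, and the log2 difference was 0.92 (SE 0.46, interval -0.09 to 1.94, adjusted p = 0.592). The exact permutation test of this difference gave p = 0.200 (two-sided, 70 splits). Without NS-DADm replicate 4 the log2 difference was 0.39 (SE 0.25, interval -0.16 to 0.94, adjusted p = 0.665). It was 1.15 without NS-DADm replicate 1 (interval 0.09 to 2.20, adjusted p = 0.712) and 1.23 without replicate 2 (0.23 to 2.23, adjusted p = 0.523). With the replicate block the interval was 0.19 to 1.65 (adjusted p = 0.354). The interval included 0 with any other array left out.

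Asns spanned 3.09 on the log2 scale over the 8 arrays, and 4 of the 19935 genes, Asns included, spanned at least as much. The reading of NS-DADm replicate 4 stood 1.599 above the next highest array in Asns, and by at least as much in 3 genes, Asns included. The other 3 genes with a CARE match in their windows were above their WT means on that array by 0.21 for Atf3, 0.12 for Fgf21 and 0.04 for Trib3. Over the remaining arrays Atf3 ran from -0.28 to 1.01, Fgf21 from -0.23 to 0.19 and Trib3 from -0.39 to 0.20. Psat1, whose windows held no match, was at 0.36 on NS-DADm replicate 4 and from -0.14 to 0.15 on the remaining arrays. A window without a match does not show that a gene is no target of ATF4. The part of ATF4 in the Asns reading was not tested.

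Psat1 and Phgdh encode enzymes that make serine from a glycolytic intermediate, Phgdh the entry step and Psat1 the transaminase after it. Psat1 was at 6.65, 6.47, 6.59 and 6.97 in NS-DADm livers, against 6.56, 6.64, 6.75 and 6.48 in WT livers. Its highest reading was on NS-DADm replicate 4, as for Asns. Its log2 difference was 0.06 (SE 0.10, interval -0.17 to 0.28, adjusted p = 0.959), and -0.04 without that array. Phgdh was at 7.37, 7.65, 7.51 and 7.48 in NS-DADm livers, against 7.61, 7.07, 7.52 and 7.36 in WT livers. Like Asns, it was lowest on WT replicate 2. Its log2 difference was 0.12 (SE 0.11, interval -0.13 to 0.36, adjusted p = 0.868). A further probe set that names Phgdh together with a predicted gene had means of 8.28 in NS-DADm and 8.30 in WT livers, and entered no test.

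Sesn2 encodes sestrin 2, a leucine sensor that restrains the growth kinase complex mTORC1. It had the smallest p-value of the 10 genes. Its level was 7.94, 7.80, 7.97 and 8.14 in NS-DADm livers, against 8.07, 8.44, 8.49 and 8.33 in WT livers. NS-DADm replicates 1, 2 and 3 lay below all WT arrays, and replicate 4 lay above WT replicate 1 alone. The means were 7.97 ± 0.14 in NS-DADm and 8.33 ± 0.18 in WT livers. The log2 difference was -0.37 (SE 0.10, interval -0.58 to -0.15), which is 0.776-fold, with an unadjusted p of 0.00348 and an adjusted p of 0.220. By unadjusted p it stood at place 316 of the 19935 genes. The exact permutation test gave p = 0.0571, where the smallest p that 4 against 4 arrays allow is 0.0286. With WT replicate 1 left out the groups no longer overlapped (log2 difference -0.45, adjusted p = 0.0915), and likewise with NS-DADm replicate 4 left out (-0.42, adjusted p = 0.103). The share of all genes without overlap was 8.53% without that WT array and 11.3% without that NS-DADm array.

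Fgf21, the hormone of the set, was at 6.91, 6.99, 6.82 and 6.95 in NS-DADm livers, against 6.94, 6.76, 7.02 and 6.60 in WT livers. All NS-DADm arrays lay within the WT range. The log2 difference was 0.09 (SE 0.09, interval -0.11 to 0.28, adjusted p = 0.888). Fgf21 and Psat1 lay below the median of all genes on all 8 arrays, and Atf3 and Phgdh on 7 of 8. No detection calls were at hand, so their signal over background is unknown.

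**Figure D2:**
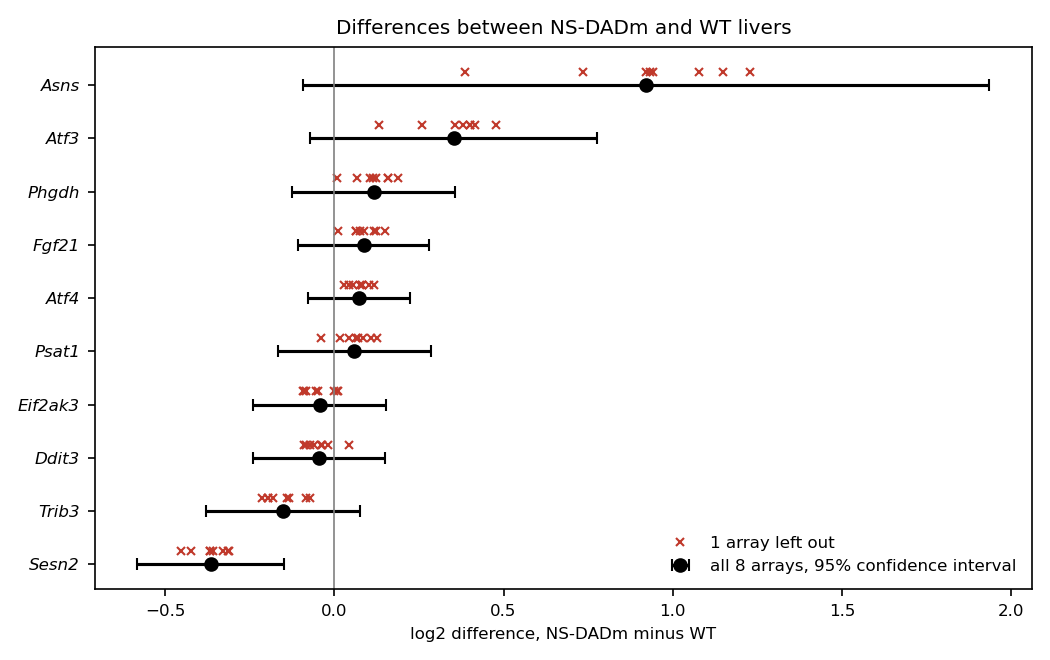
Log2 difference between the NS-DADm and WT means for each gene, with the 95% confidence interval of the fit over all 8 arrays (black) and the difference with each array left out in turn (red crosses). The intervals of all genes but Sesn2 include 0; Asns has the widest, from -0.09 to 1.94, and its cross farthest to the left, at 0.39, leaves out NS-DADm replicate 4.

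The median SD of the 10 genes was 0.15 over the NS-DADm arrays and 0.18 over the WT arrays, against medians over all genes of 0.08 in NS-DADm and 0.11 in WT. The SD was larger in NS-DADm livers for 5 genes (Asns, Atf3, Psat1, Trib3 and Eif2ak3) and in WT livers for the other 5. Over all genes the NS-DADm SD was the larger one in 36.6%. The SD of Asns over the NS-DADm arrays, 1.14, was larger than that of 99.98% of genes, and its WT SD of 0.42 larger than that of 99.65%. Fgf21 was the opposite case, with an SD of 0.07 in NS-DADm and 0.19 in WT livers.

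The array with the highest reading differed from gene to gene. NS-DADm replicate 4 had the highest NS-DADm reading for Asns, Psat1, Trib3 and Sesn2, replicate 1 for Atf4, Atf3 and Eif2ak3, and replicate 2 for Ddit3, Fgf21 and Phgdh. Among WT arrays, replicate 3 was highest for 5 genes, namely Asns, Trib3, Sesn2, Fgf21 and Psat1, while replicate 4 was highest for none. The median of the 10 genes, taken as the log2 difference from the WT mean, was 0.06, 0.06, -0.02 and 0.07 in the NS-DADm livers, against 0.04, 0.02, 0.14 and -0.09 in the WT livers.

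**Figure D3:**
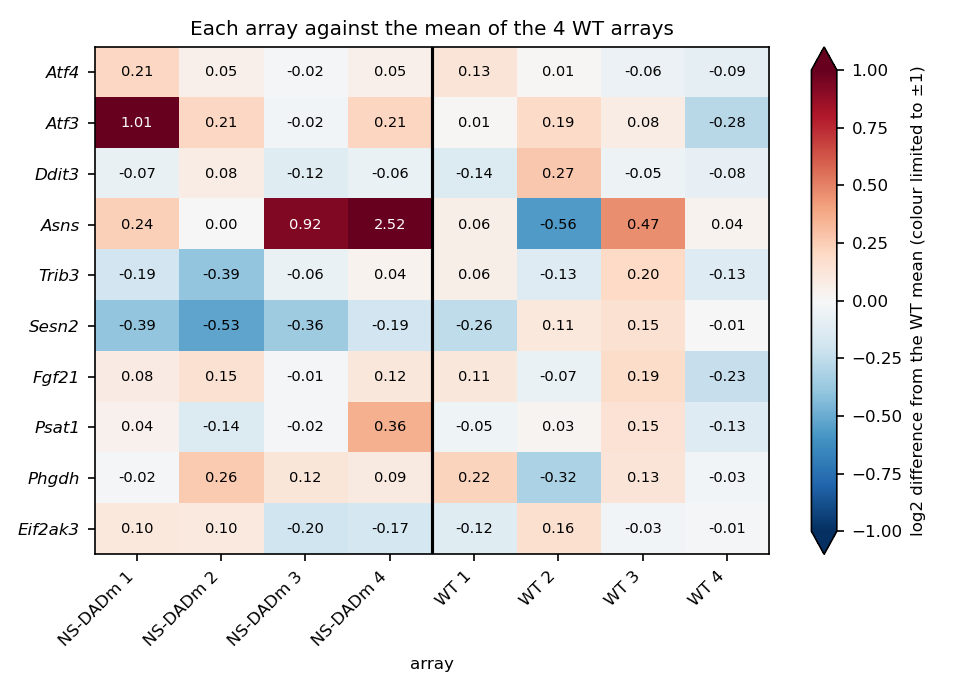
Log2 difference of each array from the mean of the 4 WT arrays for the 10 genes, with NS-DADm arrays left of the line and WT arrays right of it; colour is limited to a difference of 1 and the values are printed. Asns is at 2.52 on NS-DADm replicate 4 and Atf3 at 1.01 on NS-DADm replicate 1, and Sesn2 is below 0 on all NS-DADm arrays and on WT replicates 1 and 4.

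The 2 genes with a range of at least 1 over the arrays were Asns and Atf3, and the genes most like them were sought by Pearson's r over the 8 arrays. For Asns these were Ncapg (r = 0.979), a condensin subunit gene, Bst2 (0.978), an antiviral membrane protein gene, and Hexa (0.974), a lysosomal hexosaminidase gene. For Atf3 they were Btg2 (r = 0.972), an antiproliferative early response gene, Egr1 (0.971), a zinc finger immediate early factor, and Cidec (0.943), a lipid droplet protein gene. Over the 8 arrays Ncapg spanned 0.30, Bst2 0.25 and Hexa 0.53 on the log2 scale, against 3.09 for Asns. Btg2 spanned 2.18, Egr1 2.52 and Cidec 0.90, against 1.29 for Atf3. An r of at least 0.9 was reached by 73 genes for Asns and by 26 for Atf3. The r values are descriptions from 8 arrays of both genotypes in which 1 array lies far out. Without NS-DADm replicate 4 the 3 values for Asns were 0.897, 0.916 and 0.865, and without NS-DADm replicate 1 those for Atf3 were 0.843, 0.838 and 0.711.

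The high Asns reading of NS-DADm replicate 4 was accompanied by high readings of some genes of the amino acid list and of other lists. Of the 15 genes of the amino acid list 5 had their highest reading on that array, as 10.2% of all genes did. So did 6 of the 14 partners and further targets of ATF4 and 5 of the 11 cytosolic aminoacyl-tRNA synthetase genes. It was 1 of 14 in the eIF2 list and 2 of 10 among relatives. For immediate early genes it was 1 of 12, and for the ATF6 and IRE1 arms 0 of 24. Of the amino acid list 2 genes are named here after their values were seen. Mthfd2, a mitochondrial folate enzyme, was at 7.62, 7.54, 7.71 and 8.48 in NS-DADm livers, against 7.67 to 7.74 in WT livers. Mthfd1l, its partner in the same pathway, was at 7.45, 7.61, 7.54 and 8.24 in NS-DADm livers, against 7.60 to 7.70 in WT livers. In both, as in Psat1, that array lay above the other 7. NS-DADm replicates 1 and 2 lay below the WT range in Mthfd2, replicates 1 and 3 in Mthfd1l and replicate 2 in Psat1. The remaining NS-DADm arrays lay within it. The same array had the highest mean of 7 Kupffer cell markers, at 8.50, 8.80, 9.20 and 9.59 on the NS-DADm arrays, against 8.65 to 9.21 on the WT arrays. It also had the highest mean of 6 stellate cell markers, 9.57, against 8.73 to 9.16 on the other NS-DADm arrays and 9.09 to 9.42 on the WT arrays. The means of 6 T, NK and B cell markers (6.60) and of 6 neutrophil markers (6.53) were likewise the highest of all 8 arrays there. Both of these means lay below the array medians of 7.39 to 7.50, and without detection calls their signal over background is unknown. The part of these cells in the Asns reading was not tested.

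The high Atf3 reading of NS-DADm replicate 1 was shared by immediate early genes. Egr1 was at 9.71, 7.99, 7.87 and 7.95 in NS-DADm livers, against 7.19 to 7.77 in WT livers. Btg2 was at 10.41, 8.78, 8.56 and 9.11 in NS-DADm livers, against 8.22 to 8.62 in WT livers. Myc, the growth regulator, was at 9.69, 8.69, 8.27 and 7.95 in NS-DADm livers, against 7.59 to 8.84 in WT livers. Of the 12 immediate early genes 7 had their highest reading on NS-DADm replicate 1, as 12.4% of all genes did. Fos, named after its values were seen, was at 7.15 there and at 6.94 to 7.27 in WT livers. The same array had the lowest means of all 8 for hepatocyte (13.55), sinusoidal endothelial (9.05), Kupffer (8.50) and stellate cell markers (8.73), where the WT minima were 13.60, 9.57, 8.65 and 9.09. The median marker there stood -0.005 from its WT mean for hepatocytes, -0.65 for sinusoidal endothelial, -0.54 for Kupffer and -0.57 for stellate cells. Among hepatocyte markers Tat was at 13.39 there, against 13.80 to 13.84 in WT livers. The part of these cell types in the Atf3 reading was not tested.

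Ddit3 had its highest reading of each genotype on the arrays where several chaperone and degradation genes of the endoplasmic reticulum were highest. Creld2, a secreted stress protein gene, was at 10.89, 11.39, 10.45 and 10.36 in NS-DADm livers, against 10.62, 11.29, 10.77 and 10.49 in WT livers. Syvn1, a ubiquitin ligase of the same compartment, was at 10.63, 10.91, 10.19 and 10.16 in NS-DADm livers, against 10.46, 10.89, 10.45 and 10.14 in WT livers. In both genes replicate 2 was the highest array of each genotype and the groups overlapped. They too were named after their values were seen.

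**Figure D4:**
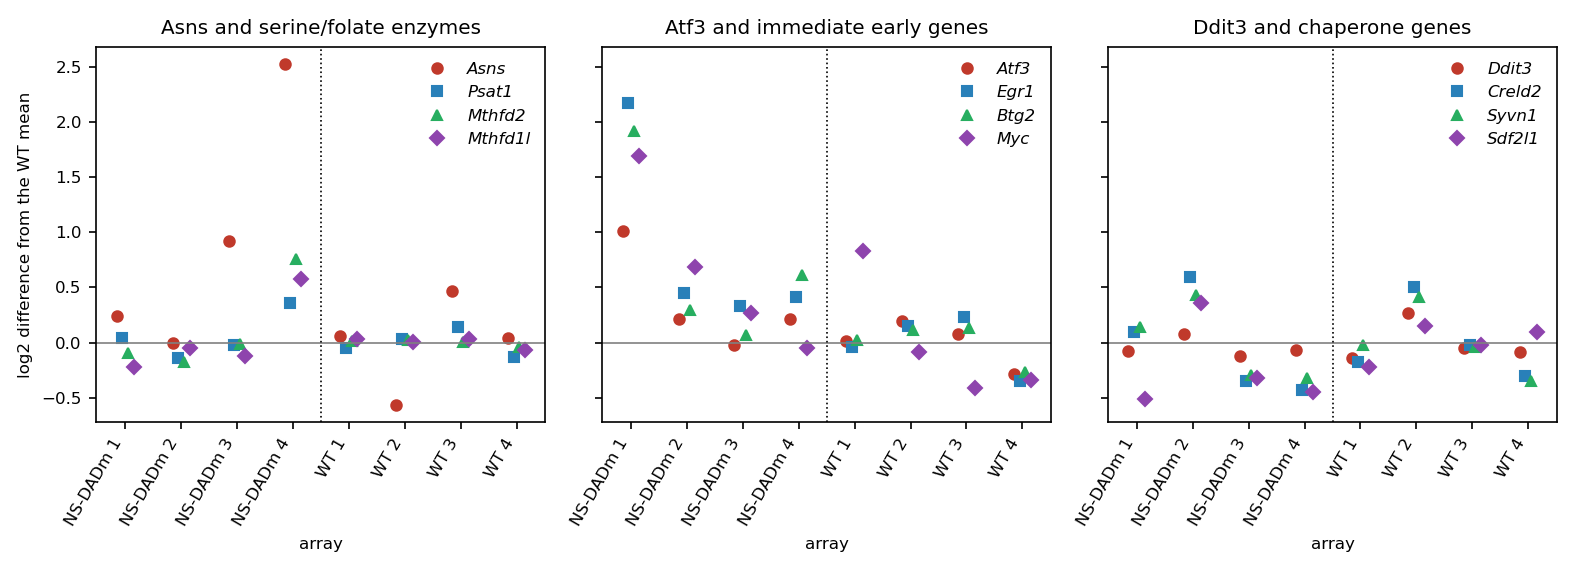
Log2 difference from the WT mean on each array for Asns with serine and folate enzyme genes (left), Atf3 with immediate early genes (middle) and Ddit3 with chaperone and degradation genes of the endoplasmic reticulum (right); NS-DADm arrays stand left of the dotted line and WT arrays right of it. The high points of the left panel are on NS-DADm replicate 4 and those of the middle panel on NS-DADm replicate 1, while in the right panel replicate 2 is the highest array of each genotype for all 4 genes, with Ddit3 at 0.08 in NS-DADm and 0.27 in WT livers.

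The rest of the pathway was followed in 7 further lists, and 0 of their 100 measured genes passed the test over all genes (limma), while 23 had an unadjusted p under 0.05, as did 9.33% of all genes. The values below are therefore differences that did not pass.

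Upstream, 14 genes for eIF2 kinases, phosphatase subunits and subunits of eIF2 and eIF2B had a median log2 difference of 0.06, with 11 above 0. Ppp1r15a, which encodes GADD34, the stress-induced subunit that brings a phosphatase to eIF2, was at 7.81, 7.90, 7.83 and 7.99 in NS-DADm livers, against 8.17, 8.12, 8.02 and 8.07 in WT livers. All NS-DADm arrays lay below all WT arrays, by a log2 difference of -0.21 (SE 0.06, adjusted p = 0.253). Such a separation downwards held for 3.83% of all genes. Eif2s2 and Eif2s3x, subunits of eIF2 itself, were at 0.23 (adjusted p = 0.442) and 0.16 (0.530).

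Among 14 partners and further targets of ATF4 the median difference was -0.02, with 7 genes above 0 and 7 below. Ddit4, which encodes REDD1, an inhibitor of mTORC1, was at 8.57, 8.87, 8.57 and 8.66 in NS-DADm livers, against 9.33, 9.21, 9.17 and 8.76 in WT livers. Only NS-DADm replicate 2 reached into the WT range, and the log2 difference was -0.45 (adjusted p = 0.202). With WT replicate 4 left out it did pass (-0.57, adjusted p = 0.0291). Vldlr, a lipoprotein receptor gene, was at 6.90, 6.96, 7.36 and 7.69 in NS-DADm livers, against 6.74, 6.52, 6.79 and 6.60 in WT livers. All NS-DADm arrays lay above all WT arrays, as in 1.8% of all genes, and the log2 difference was 0.57 (adjusted p = 0.226). Atf5, a bZIP relative of ATF4, was at 0.20 (adjusted p = 0.709).

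The 15 genes of amino acid synthesis and transport beside Asns, Psat1 and Phgdh had a median difference of 0.05, with 9 above 0. Slc6a9, a glycine transporter gene, was at 11.21, 11.25, 11.24 and 11.46 in NS-DADm livers, against 11.53, 11.59, 11.54 and 11.48 in WT livers, and the log2 difference was -0.24 (adjusted p = 0.222). Cbs and Cth, the enzymes that carry sulfur from homocysteine to cysteine, were at 0.24 (adjusted p = 0.313) and 0.23 (0.491). The groups did not overlap for 3 of the 15 genes, against 5.63% of all genes: Slc6a9, Cbs and Slc38a2, a neutral amino acid transporter gene at -0.22 (adjusted p = 0.278), which was named after its values were seen.

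The 11 cytosolic aminoacyl-tRNA synthetase genes, which load amino acids onto tRNA, all had differences above 0, with a median of 0.17. In 4 of them all NS-DADm arrays lay above all WT arrays, as in 1.8% of all genes. Tars, for threonine, was at 10.02, 9.91, 10.06 and 10.02 in NS-DADm livers, against 9.50, 9.68, 9.55 and 9.75 in WT livers, a log2 difference of 0.38 (SE 0.07, adjusted p = 0.0583). With WT replicate 4 left out it did pass (0.42, adjusted p = 0.0353), as under 3 other settings (adjusted p = 0.0165 to 0.0462). Cars, for cysteine, was at 0.24 (adjusted p = 0.351) and Lars, for leucine, at 0.22 (0.295). The CARE element was found in 4 of the 7 genes of this list that had a promoter window, namely Gars, Iars, Tars and Yars. The groups did not overlap in Gars and Tars and overlapped in Iars and Yars. The element was found in 5 of 12 such genes among the partners and further targets of ATF4, 2 of 13 in the amino acid list, 1 of 11 in the eIF2 list and none in the other 3 lists. The share of all genes with a match is not given here, and the part of ATF4 in these differences was not tested.

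The 24 genes of the ATF6 and IRE1 arms, which raise the folding capacity of the endoplasmic reticulum beside PERK, had a median difference of 0.01, with 13 above 0 and 11 below. Xbp1, whose spliced mRNA encodes the factor of the IRE1 arm, was at 12.66, 12.34, 12.16 and 11.98 in NS-DADm livers, against 12.03, 12.13, 12.06 and 11.95 in WT livers. The groups overlapped, and the log2 difference was 0.24 (adjusted p = 0.596). The chaperone genes Sdf2l1 and Hyou1 were at -0.23 (adjusted p = 0.787) and -0.16 (0.874). NS-DADm replicate 2 held the highest reading for 13 of the 24 genes, as for 6.64% of all genes.

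Among relatives of these genes, Sesn3, a second sestrin gene, was at 8.78, 8.75, 8.90 and 8.77 in NS-DADm livers, against 8.79, 9.05, 9.10 and 9.15 in WT livers. NS-DADm replicate 3 lay above WT replicate 1, and the log2 difference was -0.22 (adjusted p = 0.397), in the same direction as that of Sesn2. Klb, the co-receptor that FGF21 needs, was at 0.19 (adjusted p = 0.615) and Fgfr1, one of its receptor kinases, at 0.20 (0.458). The list of 10 had a median of -0.01.

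The 12 immediate early genes had a median difference of 0.16 and 9 values above 0. Egr1 was at 0.84 (adjusted p = 0.485), Btg2 at 0.72 (0.525) and Myc at 0.65 (0.644), values that include the high readings of NS-DADm replicate 1.

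**Figure D5:**
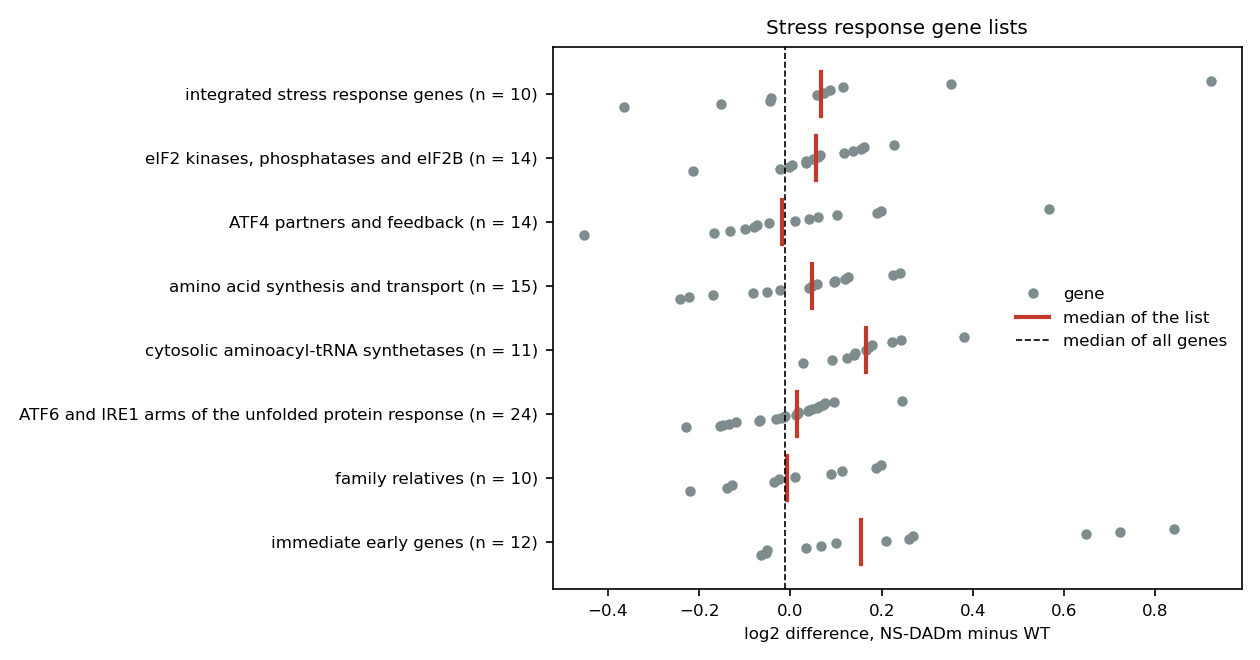
Log2 differences between NS-DADm and WT livers for single genes (grey points) of the integrated stress response and 7 related lists, with the median of each list (red) and of all genes (dashed). The points of the aminoacyl-tRNA synthetases all lie above 0, between 0.03 and 0.38, and those of the other lists lie on both sides.

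The livers read as liver by their markers. The mean of 7 hepatocyte markers was 13.55 to 13.59 in NS-DADm and 13.60 to 13.61 in WT livers. Their median difference was 0.003, with 4 above 0 and 3 below and none past the test. The largest in size were Tat at -0.20 and Serpina1c at -0.09. The mean of 8 sinusoidal endothelial markers was 9.05 to 9.72 in NS-DADm and 9.57 to 9.76 in WT livers, with all 8 differences below 0, a median of -0.31 and none past the test. An unadjusted p under 0.05 (limma) was reached by 6 of the 8, against 9.33% of all genes. In 2 of the 8 all NS-DADm arrays lay below all WT arrays, against 3.83% of all genes. In the mean of these markers NS-DADm replicates 1, 2 and 3 lay below all WT arrays, as they did for Sesn2. The part of these cells in the Sesn2 difference was not tested. Kupffer cell markers had a median of 0.09, neutrophil markers 0.15, T, NK and B cell markers 0.05, stellate cell markers -0.12 and cholangiocyte markers 0.01, with no gene past the test. Array medians ran from 7.39 to 7.50.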

How the data were processed

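RNA of 4 NS-DADm and 4 WT livers was read on 8 arrays. The deposited log2 values (28270 probe sets) were made by the authors with RMA and Partek, per the submitters' processing notes, with settings that are not stated in what was used here. Their log2 scale was read from the values (3.43 to 14.37), and RMA compresses small differences at low intensity. Genes were named from the platform annotation, with symbols updated by Entrez Gene identifier (19852 of 19935 matched). Of the probe sets naming 1 gene alone, the one with the highest mean represented the gene. No filter or pseudocount was used. The genotypes were tested with limma 3.58.1 under R 4.3.3 (lmFit, eBayes, two-sided, Benjamini-Hochberg over all genes, threshold 0.05), tested on simulated data. Single genes were also tested by exact permutation over 70 splits. Precision is limited by the number of arrays.

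The genes and lists were chosen with earlier results of these data known. All 10 genes are named, and of each further list the genes past the test or otherwise the 3 with the largest absolute difference. Of the lists' genes, 100 of 104 had a probe set of their own; the other 4 were not analysed here. The alternatives were other uses of probe sets, filters, normalizations, variance models, array weights, a replicate block and each array left out. Same-numbered arrays of the 2 genotypes correlated at 0.15, 0.05, -0.10 and 0.25 in their deviations from the group means. Differently numbered arrays correlated at -0.32 to 0.26. The labels state no pairing, and the numbers were not taken to pair the samples.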

Additional observations from a re-analysis of the deposited data

Results flagged for a closer look

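Within-group gaps were examined in 41 genes and both genotypes. Trib1 and Aldh18a1 were among them without being described above, while Fos, Slc38a2 and the cell type markers were not. The gaps were compared with Dixon's 95% critical value for 4 samples. Of 82 groups 3 passed it. Chance gives about 1 in 20 for genes not picked by their pattern, but several of these were named for a high reading on 1 array (Egr1, Btg2 and Cidec by likeness to Atf3, and Mthfd2, Mthfd1l and Creld2 after their values were seen), so the count is not read against that rate. Egr1 in NS-DADm livers had a gap of 0.936 of its range, from replicate 1 (9.71) to the next array (7.99). Slc6a9 in NS-DADm livers had a gap of 0.830, from replicate 4 (11.46) to the next array (11.25). Lars in WT livers had a gap of 0.894, from replicate 4 (9.13) to the next array (8.99). None of the 10 integrated stress response genes passed it: Ddit3 in WT livers (0.785), Atf3 in NS-DADm livers (0.771) and Asns in NS-DADm livers (0.633) stayed below.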

How the results depend on the processing

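The count of integrated stress response genes past the test was 0 under all 17 alternatives. The smallest adjusted p of any of them was 0.0881, for Sesn2 with array weights, and the log2 difference of Sesn2 ran from -0.45 to -0.31 with 1 array left out. Of the 10 differences, 7 kept their direction under all alternatives that gave a value. Psat1 turned to -0.039 with array weights. With 1 array left out Psat1 ran from -0.041 to 0.13, Ddit3 from -0.090 to 0.044, Eif2ak3 from -0.092 to 0.011, Asns from 0.39 to 1.23, Atf3 from 0.13 to 0.48, Atf4 from 0.028 to 0.12 (lowest without NS-DADm replicate 1), Trib3 from -0.21 to -0.072 (smallest in size without NS-DADm replicate 2), Fgf21 from 0.0094 to 0.15 (lowest without WT replicate 4) and Phgdh from 0.0093 to 0.19 (lowest without WT replicate 2). The 54 genes past the test over the whole array became 109 with array weights and 105 with the replicate block, and 13 to 126 with 1 array left out (13 without WT replicate 2, 126 without NS-DADm replicate 4). Of the 100 genes of the other lists, 1 passed with values at or above the median, with quantile normalization and with array weights (Tars each time), 1 with the replicate block (Myc, adjusted p = 0.0278), and 0 to 2 with 1 array left out. The number of the 10 genes whose groups did not overlap was 0 to 1 with 1 array left out, where 7.29% to 11.3% of all genes did not overlap, and the number at the smallest exact permutation p also 0 to 1; the gene was Sesn2 or Atf3. The block changed no call among the 10 genes. Filters on low values left out Atf3, Fgf21, Psat1 and Phgdh at the median. The causes were not tested. Without detection calls, differences in genes near the low end of intensity cannot be bounded by signal over background.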
